A study of Mus musculus with 3 samples.

Results

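The genes marked by a GFI1:DAM fusion protein in mouse haemogenic endothelium were described from the complete gene list that the authors deposited for this fusion. All genes on the list were taken, 5238 of the 7612 genes found on the lists of the study's 2 fusions, GFI1:DAM and GFI1B:DAM. A gene was therefore a member because the authors had assigned it at least 1 marked interval, and no threshold was added here.

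The study placed GFI1:DAM, GFI1B:DAM or DAM without a partner behind a doxycycline-inducible promoter at the Hprt locus of AinV18 mouse embryonic stem cells, so all 3 groups carry the docking site and the inducible DAM enzyme. FLK1+ cells were purified from embryoid bodies at day 3.25, cultured, and the TIE-2/c-KIT compartment was sorted on day 2 of culture as haemogenic endothelium. Each group was 1 sample that stands for 2 biological replicates, so no value below has an SD and no comparison was tested. The fusion was expressed from the docking site rather than from the gene's own promoter, each group came from 1 engineered line, and the sources used here do not give the doxycycline dose. DNA marks cannot be set against expression markers, so the labelled cell type was not checked.

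DAM is a bacterial adenine methyltransferase that methylates the A of GATC. When it is fused to a chromatin protein GATC sites close to that protein's positions become methylated, and DpnI, which cuts methylated GATC, releases them for sequencing. The unfused enzyme methylates open DNA and serves as the background. GFI1 is a zinc-finger repressor that binds DNA at a core AATC motif and recruits, through its SNAG domain, the LSD1 (Kdm1a) and CoREST (Rcor1) complex, which removes methyl groups from histone H3. In haemogenic endothelium, GFI1 and its relative GFI1B are known for shutting down the endothelial programme as blood cells form.

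The list gave for each gene its marked intervals, the number of reads in them, and the reads per kb of interval. Where an interval is said below to lie in a gene, the authors listed it under that gene. Its place within or outside the gene was not determined. The 5238 genes carried 7166 distinct intervals on the mm9 build. The median interval was 1201 bp wide (interquartile range 851 to 1701 bp, range 251 to 9551 bp). A single interval was listed for 3929 genes (75%), 2 to 4 intervals for 1212 genes, and 5 or more for 97 genes. The median gene had 74 reads (interquartile range 48 to 127, range 15 to 13669) and 48.7 reads per kb (38.9 to 65.9). Only 417 genes (7.96%) exceeded 100 reads per kb and 24 exceeded 200, so most of the list lay in a narrow band of signal. Depth of the libraries is unknown. Read numbers and reads per kb were not scaled between the fusions, and the value of a gene on the GFI1B:DAM list is given beside its GFI1:DAM value for reading only. The GFI1B:DAM list held 5327 genes and 7612 genes were on either list, so many of the 5238 genes were on both. Presence of a named gene on the GFI1B:DAM list is therefore common, and counts of such genes below are description only. Whether reads of the DAM control were subtracted is stated for the GFI1B:DAM list and not for the GFI1:DAM list.

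Genes the study turns on were not among the strongest. Runx1, without which no blood forms from endothelium, had 2 intervals at 56.99 reads per kb. Kdm1a had 4 intervals at 39.22 reads per kb, and Rcor1 had 2 at 46.22. The first value lay above the list median and the other 2 below it. Gfi1, Gfi1b and Hprt were not listed. Of endothelial and progenitor surface genes, chosen after their values were seen, Kdr (VEGF receptor) had 70.19 reads per kb, Pecam1 67.94 and Tek (the TIE-2 receptor) 61.78, whereas Kit and Cdh5 were not listed.

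**Figure D1:**
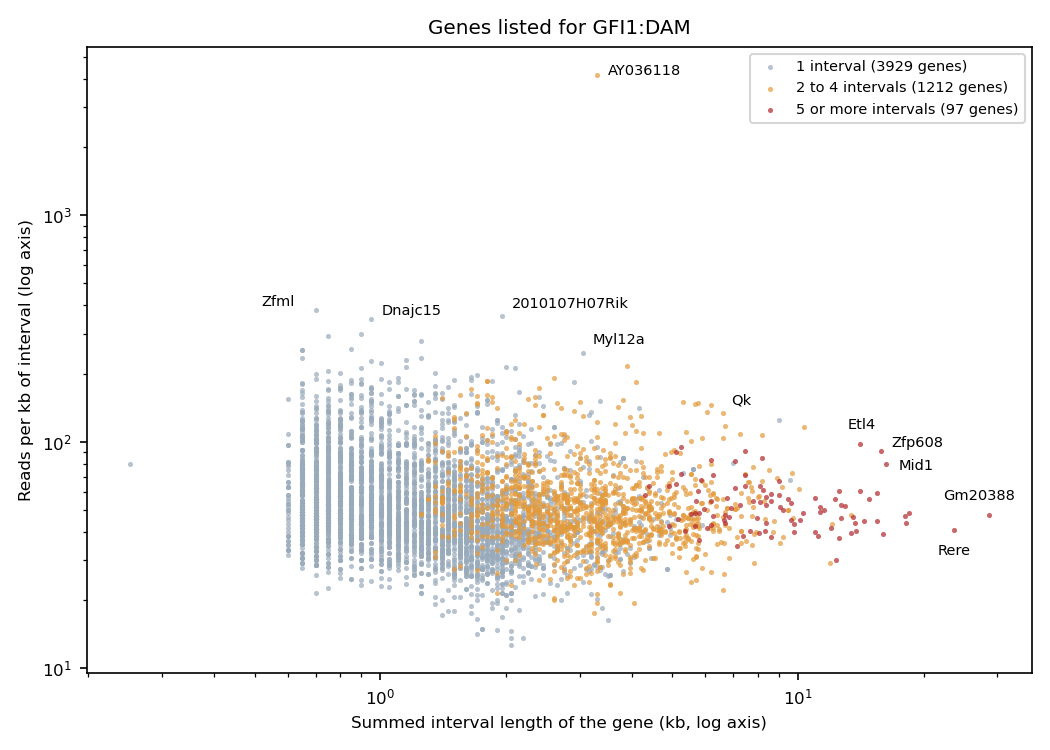
Each point is 1 of the 5238 genes listed for GFI1:DAM, with the summed length of its intervals in kb on the x axis and its reads per kb on the y axis (both log axes), coloured by the number of intervals. AY036118 stands apart at 4140 reads per kb. Genes with 5 or more intervals lie on the right at moderate reads per kb, and the highest reads per kb among the other genes belong mostly to single short intervals.

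Ranking by read number and ranking by reads per kb gave nearly separate sets of genes. The 15 strongest genes by each measure shared 1 gene and the 100 strongest shared 7. The top 100 by read number had a median of 4 intervals covering 8.33 kb, whereas the top 100 by reads per kb had a median of 1 interval covering 1.08 kb. Read number thus ordered genes largely by how much of them was marked, and reads per kb by how densely a single place was marked. Among the 3929 genes with 1 interval, the Spearman correlation between width and reads was 0.598 and between width and reads per kb -0.289, a description across genes, which are not independent replicates.

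The gene shared by both rankings was AY036118, a pseudogene on chromosome 17 with 13669 reads in 2 intervals of 1501 and 1801 bp (mm9, chr17:39975997-39977497 and chr17:39983347-39985147). Its 4139.61 reads per kb was followed at a distance by 382.31 for the next gene. On the GFI1B:DAM list it had 15471 reads and 5621.73 reads per kb, so its extreme value was seen with both fusions. The sources used here do not say how reads with several genomic matches were treated.

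After AY036118, the genes with most reads ranged from 1 interval to 20, and several were long loci. Zfp608, a zinc-finger gene on chromosome 18, had 1436 reads in 6 intervals (2309 reads on the GFI1B:DAM list). The neighbouring lincRNAs Gm4221, with 1199 reads, and Gm17270, with 1123, owed most or all of their reads to an interval of 9001 bp that the authors listed under all 3 genes. These 3 entries are therefore largely 1 marked region. Etl4, the sickle tail gene of the developing vertebral column, had 1382 reads in 12 intervals spread over 759 kb, and 1380 reads on the GFI1B:DAM list. Gm20388 had 1361 reads in 20 intervals, the most of any gene, but its intervals spanned 4194 kb and 6 of them were also listed under Ankrd11, Banp, Spire2 and others. Mid1, a microtubule-bound ubiquitin ligase on chromosome X, had 1299 reads in 5 intervals.

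Regulators of transcription and of the cell cycle stood next in that ranking. Rere, an atrophin-family nuclear receptor co-regulator, had 964 reads in 13 intervals at 40.74 reads per kb. Rb1, the retinoblastoma tumour suppressor, had 922 reads in 5 intervals, 1 of which it shared with Lpar6, a receptor gene inside its intron. That interval was the widest of the list (9551 bp, mm9 chr14:73636013-73645563). Bach2, a transcriptional repressor of lymphoid cells, had 852 reads in 11 intervals. Signalling and RNA-binding genes completed the set. Pde4d, a cAMP phosphodiesterase, had 897 reads in 10 intervals over 1252 kb, and Fgfr2, a fibroblast growth factor receptor, had 855 reads in 13 intervals. The 13 Fgfr2 intervals spanned 2725 kb, and 7 of them were also listed under neighbours such as Ate1, Tacc2 and Plekha1. Fgfr2 itself is 104 kb long, so these intervals cannot all lie within the gene. Qk, the RNA-binding protein quaking, held 885 reads in only 2 intervals, at 134.05 reads per kb against 76.60 on the GFI1B:DAM list. Fndc3a, a fibronectin type III gene close to Rb1, had 876 reads, the lincRNA Gm16724 had 903, and Myo3a, an unconventional myosin, had 852. All 15 genes were also on the GFI1B:DAM list, as were many of all 5238 genes. That list held 5327 genes, and 7612 were on either list.

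The ranking by reads per kb was led, after AY036118, by genes with 1 short interval each. Zfml (Zfp638), a zinc-finger RNA-binding protein, had 268 reads in 701 bp (mm9, chr6:83865364-83866064), or 382.31 reads per kb against 56.78 on the GFI1B:DAM list. An interval of 1951 bp with 701 reads (359.3 reads per kb) was listed under both 2010107H07Rik, now Smim4, and Pbrm1, a subunit of the PBAF chromatin remodeller. Dnajc15, a mitochondrial co-chaperone, had 347.0 reads per kb and Chn1, a Rac GTPase-activating protein, had 299.67. Both had lower reads per kb on the GFI1B:DAM list, 147.18 and 73.72. By read number Dnajc15 was higher there, with 486 reads against 330, and Chn1 was lower, with 225 against 270. The genes of this ranking were chosen by their GFI1:DAM value alone.

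Chromatin and metabolic genes were among the others. Epc1, a subunit of the NuA4 histone acetyltransferase complex, had 291.61 reads per kb, and Pcgf3, a Polycomb ring-finger protein, had 253.46. Atp5f1, now Atp5pb, a subunit of ATP synthase, had 350 reads in 1251 bp at 279.78 reads per kb. Epc1, Pcgf3, Atp5f1 and Nebl, the Z-disc protein nebulette (233.49), were the 4 genes of the 15 that were not listed for GFI1B:DAM. Such absence was not rare, since 7612 genes were on either list and 5327 on that of GFI1B:DAM. Kcnn3, a calcium-activated potassium channel, had the reverse order of values, 253.46 with GFI1:DAM and 315.99 with GFI1B:DAM, as did the lincRNA C030034L19Rik, 257.34 and 295.61. Myl12a, a myosin regulatory light chain, had 247.46 reads per kb in an interval shared with Gm16724, against 369.49 on the GFI1B:DAM list. The lists are not scaled to each other, so these orders do not show a difference between the fusions. Alkbh8, a tRNA-modifying enzyme, had 233.41, Zfp652 had 228.5 and Prkg1, the cGMP-dependent protein kinase of smooth muscle, had 227.13. Of the 15 genes 14 had 1 interval.

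Promoter windows of RefSeq are shown for 3 of these genes because DAM can mark only GATC and GFI1 reads AATC. Each window runs from 250 bases before to 50 bases after the gene's start. Capitals mark GATC and AATC, the latter on either strand (AATC or GATT). Zfml and Atp5f1 hold both motifs and Kcnn3 holds neither. The windows are on another build than the intervals, so their distance from the marked interval cannot be given.
Zfml promoter (GRCm38.p6, chr6:83914103-83914402, plus strand): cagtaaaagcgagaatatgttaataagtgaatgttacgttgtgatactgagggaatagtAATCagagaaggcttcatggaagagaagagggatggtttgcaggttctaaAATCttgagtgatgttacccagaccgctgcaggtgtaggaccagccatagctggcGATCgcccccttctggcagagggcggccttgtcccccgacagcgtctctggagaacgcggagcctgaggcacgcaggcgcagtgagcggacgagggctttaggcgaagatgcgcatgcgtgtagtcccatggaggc
Atp5f1 promoter (GRCm38.p6, chr3:105959214-105959513, minus strand): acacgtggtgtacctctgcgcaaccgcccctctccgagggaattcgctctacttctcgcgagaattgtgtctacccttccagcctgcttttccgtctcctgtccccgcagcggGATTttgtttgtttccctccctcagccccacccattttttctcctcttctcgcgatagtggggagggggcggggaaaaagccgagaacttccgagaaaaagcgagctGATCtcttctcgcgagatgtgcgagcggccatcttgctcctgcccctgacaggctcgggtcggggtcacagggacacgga
Kcnn3 promoter (GRCm38.p6, chr3:89519914-89520213, plus strand): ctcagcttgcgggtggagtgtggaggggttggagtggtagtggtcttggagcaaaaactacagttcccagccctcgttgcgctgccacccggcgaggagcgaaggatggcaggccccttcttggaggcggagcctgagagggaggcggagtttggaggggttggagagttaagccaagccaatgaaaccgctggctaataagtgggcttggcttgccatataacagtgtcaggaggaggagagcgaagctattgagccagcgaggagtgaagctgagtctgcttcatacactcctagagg
Of the 10 protein-coding genes among the 15 strongest by reads per kb that had a window, 3 held GATC and 8 held AATC. Over the first window of every protein-coding gene in the table, GATC was present in 46.9% of 17492 windows and AATC in 71.6%. Among the 3193 windows of listed genes the shares were 44.1% and 66.5%. The longer motif TAAATCAC was present in 0.526% of all windows and 0.407% of those of listed genes. None of the motif shares was higher in the listed genes. The motif search was added after the data were seen, and a match is only a run of letters.

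The list covered a sizeable part of the genome's genes. Of 49997 RefSeq genes 4618 were listed, or 9.24%. Of 21900 protein-coding genes 4022 were listed, or 18.4%, which is the background for the counts that follow. The share depended strongly on the length of the gene. It was 6.51% of protein-coding genes under 10 kb, 13.3% of those of 10 to 30 kb, 28.0% of those of 30 to 100 kb and 50.5% of those of 100 kb or more. Long genes also had more intervals, with a mean of 2 against 1.1 for the shortest class. Their reads per kb did not follow length, with medians of 47.6, 48.3, 47.7 and 49.5 in the 4 classes. Gene length therefore bears on the count of a family, and the families are set below against both the 18.4% of all protein-coding genes and the share in genes of the same length classes.

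**Figure D2:**
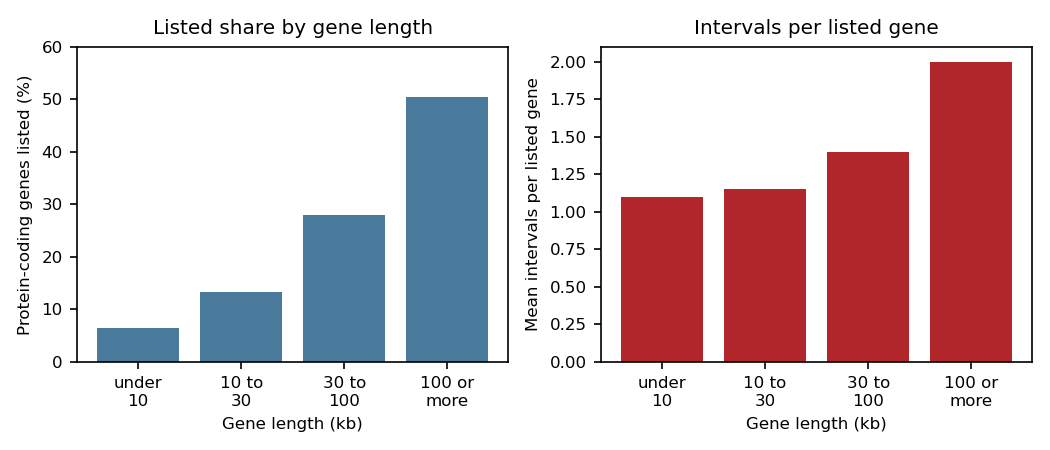
The left bars give the percentage of protein-coding RefSeq genes listed for GFI1:DAM in 4 classes of gene length (kb), and the right bars the mean number of intervals per listed gene. The listed share rises from 6.51% to 50.5% and the mean number of intervals from 1.1 to 2.

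Counted over 78 families and processes, 52 had a larger listed share than protein-coding genes as a whole, but only 37 had a larger share than genes of their own length classes. In 12 of them the share was more than 1.5 times that of the same length classes. These were splicing factors, translation initiation factors, dual-specificity phosphatases, hypoxia and glycolysis genes, SOX, T-box and forkhead factors, the actin cytoskeleton, cohesin and condensin, non-receptor tyrosine phosphatases, cholesterol and fatty acid metabolism, and DOCK exchange factors. Lists share some genes, several are small, and no test was made of any of them.

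**Figure D3:**
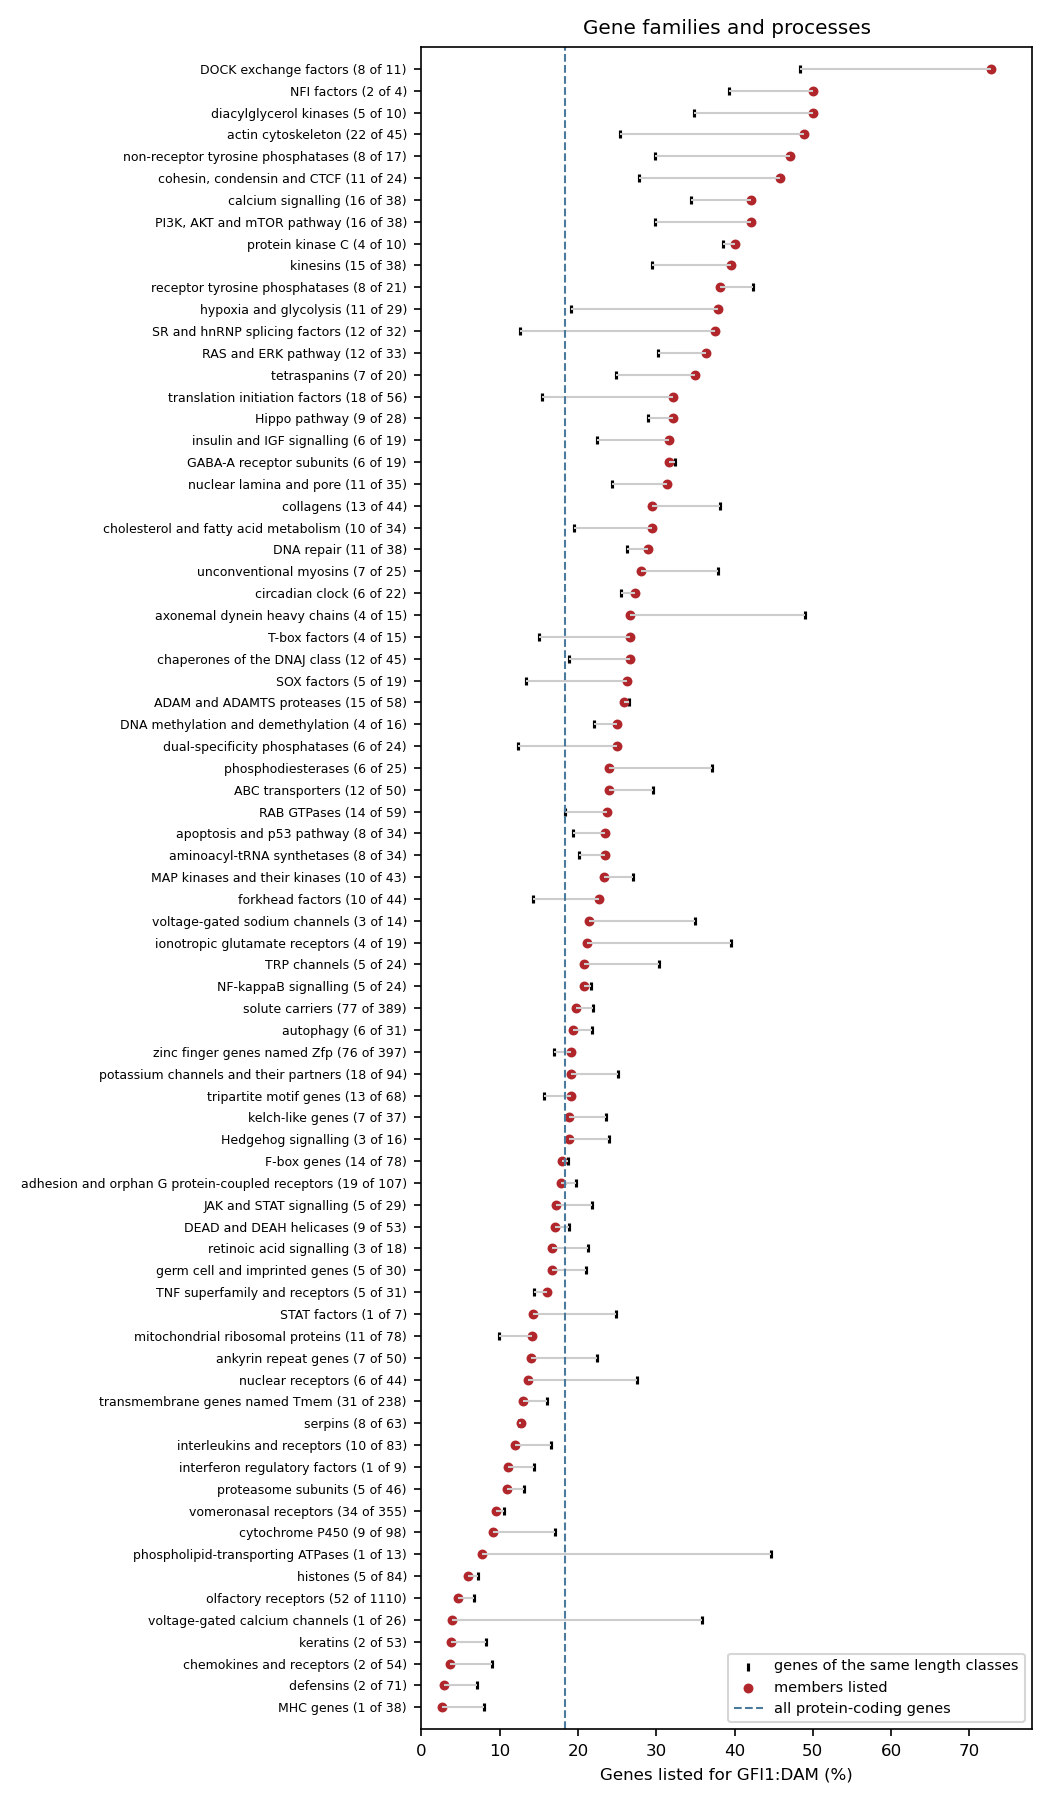
For each of 76 gene families and processes the red point gives the percentage of its RefSeq members listed for GFI1:DAM and the black mark the percentage of protein-coding genes of the same length classes. The dashed line is the 18.4% of all protein-coding genes. The count of members listed is beside each name, and the widest gaps above the black mark are those of DOCK, splicing and actin genes.

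Genes of the actin cytoskeleton, the filament system behind cell shape and migration, were listed at 22 of 45 (48.9%, against 25.4% for the same lengths). The filament protein Actb had 58.73 reads per kb and its nucleator subunits Arpc2 and Actr3 had 54.08 and 41.78. The small GTPases that steer filament growth included Rhoa at 74.25, Rac1 at 50.64 and Cdc42 at 44.9 reads per kb. Rock1, the kinase that RHOA activates to drive contraction, was highest at 149.92 reads per kb in 3 intervals, and Rock2 had 6 intervals at 46.0. The formin genes Diap1, Diap2 and Diap3 had 61.71, 37.83 and 35.99. The listed members thus ran from the switches to their effectors. Of the 22, 13 had 2 or more intervals, whereas 75% of all listed genes, of any length, had 1. The median of the 22 was 45.7 reads per kb, below the 48.7 of the whole list, and 9 of them reached that value.

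Motor proteins and regulators of those GTPases were listed too, though many are long genes. DOCK exchange factors, which load RAC and CDC42 with GTP, were listed at 8 of 11 (72.7%, against 48.4%), led by Dock5 at 71.37 reads per kb, and Dock4 had 7 intervals. Kinesins, the motors that walk on microtubules, were listed at 15 of 38 (39.5%, against 29.5%), with Kif16b at 104.58 and the spindle motor Kif11 at 54.21. Unconventional myosins (7 of 25) and axonemal dyneins (4 of 15) lay below their length classes, at 28% against 37.9% and 26.7% against 49%.

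Genes of RNA processing and translation, many of them short, were counted in 5 groups, 4 of which had shares above those of their length classes. SR and hnRNP splicing factors, which bind pre-mRNA and choose splice sites, were listed at 12 of 32 (37.5%, against 12.6%). Srsf7 had 76.63 reads per kb, Hnrnpr 64.47, Hnrnpf 60.34 and Hnrnpa2b1 53.26, and the lowest of the 12 had 23.7. Their median was 45.8, and 6 of the 12 reached the list median of 48.7. Translation initiation factors were listed at 18 of 56 (32.1%, against 15.4%), a count that takes in the Eif4e-binding inhibitor Eif4ebp1 at 33.28. Eif1, which helps select the start codon, had 136.24 reads per kb and Eif4b, a partner of the initiation helicase, 91.3, while the cap-binding protein Eif4e itself had 39.95. The median of the 18 was 40, below the 48.7 of the whole list, so they were often listed but mostly at low signal. The other groups lay closer to their length classes, with DEAD and DEAH helicases at 9 of 53 (17%, against 18.8%), aminoacyl-tRNA synthetases at 8 of 34 (23.5%, against 20.1%) and mitochondrial ribosomal proteins at 11 of 78 (14.1%, against 9.93%).

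Genes that shape chromosomes were listed at 11 of 24 for cohesin, condensin and CTCF (45.8%, against 27.8%). The cohesin ring genes Smc3, Smc1a and Rad21 had 70.18, 31.59 and 33.62 reads per kb, and the alternative subunits Stag1 and Stag2 had 4 intervals each at 89.55 and 26.6. Ctcf, the DNA-binding protein at which cohesin stops, had 38.63. Both arms of the cohesin cycle were represented, with the releasing factor Wapal at 38.93 and the acetyltransferase Esco2 at 44.08. The median of the 11 was 39, and 3 of them reached the list median of 48.7. Nuclear lamina and pore genes were listed at 11 of 35 (31.4%, against 24.3%), with Syne1 at 124.17, and DNA repair genes at 11 of 38 (28.9%, against 26.3%), with Xrcc4 at 131.68 and the damage kinase Atm at 81.67. Histone genes, which are very short, were listed at 5 of 84 (5.95%, against 7.19%).

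Signalling genes lay on both sides of their length classes. Non-receptor tyrosine phosphatases were listed at 8 of 17 (47.1%, against 29.8%), with Ptpn14 at 64.52 and Ptpn1 at 59.96 reads per kb, and dual-specificity phosphatases at 6 of 24 (25%, against 12.3%), with Dusp12 at 104.93 and the ERK phosphatase Dusp6 at 63.44. Receptor tyrosine phosphatases, at 8 of 21 (38.1%, against 42.3%), lay slightly below their length classes, and Ptprb, the endothelial member, had 79.48. PI3K, AKT and mTOR genes were listed at 16 of 38 (42.1%, against 29.8%). Gsk3b, a kinase that insulin signalling holds in check, had 59.47 reads per kb and the PI3K regulatory subunit Pik3r3 57.91. Diacylglycerol kinases were listed at 5 of 10 (50%, against 34.8%), with Dgkd at 74.18. RAS and ERK genes (12 of 33, 36.4% against 30.2%) included the small GTPase Rap1a at 105.75 and the RAS inactivator Nf1 at 72.41. Hippo genes (9 of 28, 32.1% against 29%), protein kinase C (4 of 10, 40% against 38.5%) and NF-kappaB genes (5 of 24, 20.8% against 21.7%) lay near their length classes.

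Hypoxia and glycolysis genes were listed at 11 of 29 (37.9%, against 19.1%). The list held the oxygen-sensing factor Epas1 (HIF2-alpha) at 84.47 reads per kb. Genes of glucose use included the transporter Slc2a1 at 48.95 and the glycolytic regulator Pfkfb3 at 118.05. The enzymes Eno1, Pgk1 and Pkm2 had 48.32, 34.18 and 99.94. The median of the 11 was 46.2, and 4 of them reached the list median of 48.7. Cholesterol and fatty acid genes were listed at 10 of 34 (29.4%, against 19.5%), among them Elovl5, a fatty acid elongase, at 99.35, Idi1 of the isoprenoid pathway at 86.57 and the cholesterol exporter Abca1 at 53.95. Solute carriers at large (77 of 389, 19.8% against 21.9%) lay near theirs, although Slc39a12, a zinc transporter, reached 222.78.

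Transcription factor families fell on both sides. SOX factors were listed at 5 of 19 (26.3%, against 13.4%), with Sox30 at 175.43 and Sox7, an early endothelial and blood progenitor factor, at 101.15 reads per kb. T-box factors were listed at 4 of 15 (26.7%, against 15%), led by the heart factor Tbx20 at 104.21, and forkhead factors at 10 of 44 (22.7%, against 14.2%), led by Foxj2 at 118.6. The median of the 10 forkhead factors was 36.6 reads per kb, and only Foxj2 reached the list median of 48.7. Zinc finger genes named Zfp were the largest of these sets, at 76 of 397 (19.1%, against 16.9%), and included 2 of the 15 strongest genes, Zfml and Zfp652. Genes matched by the symbol pattern for nuclear receptors were listed at 6 of 44 (13.6%, against 27.6%), although the retinoic acid receptor Rarb had 128.08. The 6 include Ror1 at 26.38, a cell-surface receptor and not a nuclear one, so the count and base of this family are not exact. Interferon regulatory factors were listed at 1 of 9 (11.1%, against 14.4%) and STAT factors at 1 of 7 (14.3%, against 24.9%). Circadian genes (6 of 22, 27.3% against 25.5%) included Clock at 158.27.

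The families with the lowest shares included several of immune defence, and keratins. Not every immune family lay low. TNF superfamily genes and receptors were listed at 5 of 31 (16.1%, against 14.4%) and interleukins and receptors at 10 of 83 (12%, against 16.6%). MHC genes were listed at 1 of 38 (2.63%, against 7.97%), defensins at 2 of 71 (2.82%, against 7.1%), chemokines and their receptors at 2 of 54 (3.7%, against 8.96%) and keratins at 2 of 53 (3.77%, against 8.19%). Voltage-gated calcium channels, which are long genes, were listed at 1 of 26 (3.85%, against 35.8%), the single member being Cacna2d1 at 31.65 reads per kb. Phospholipid-transporting ATPases, the flippases of the membrane, were listed at 1 of 13 (7.69%, against 44.7%). On the GFI1B:DAM list each of the last 2 families had 5 members, but the share of genes of their lengths on that list was not computed. Ionotropic glutamate receptors (4 of 19, 21.1% against 39.6%), phosphodiesterases (6 of 25, 24% against 37.1%) and voltage-gated sodium channels (3 of 14, 21.4% against 35%) also lay below their length classes.

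The chemosensory receptors, which sit in dense tandem arrays, formed a further case. Olfactory receptors were listed at 52 of 1110 (4.68%, against 6.7%) and vomeronasal receptors at 34 of 355 (9.58%, against 10.5%). The 52 olfactory receptors had a median of 73.3 reads per kb, above the 48.7 of the list, and all 52 had an interval of their own. The strongest were Olfr993 at 164.36 and Olfr687 at 161.08, and of the pheromone receptors Vmn2r80 at 170.7. On the GFI1B:DAM list 25 olfactory and 6 vomeronasal receptors were present. The share of genes of these lengths on that list was not computed, so the 2 counts have no base. The difference between the fusions was not tested. Receptors of one array resemble each other, so the limit on reads with several matches applies to them too.

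Genes that make no protein formed the smaller share of the list. Per the authors' biotypes 4162 genes (79.5%) were protein-coding, 315 (6.01%) pseudogenes, 303 (5.78%) lincRNAs, 92 antisense transcripts and 82 miRNAs. Small RNA genes were led by repeated names, with 56 entries called U6 among 101 snRNA genes and 45 called SNORA17 among 84 snoRNA genes. The annotated totals of pseudogenes, lincRNAs, antisense, snRNA and snoRNA genes were not counted, so these numbers are not shares. All RefSeq genes together were listed at 9.24%, below the 18.4% of protein-coding genes. Medians of reads per kb were close to the 48.3 of protein-coding genes, at 50.5 for pseudogenes, 51.1 for lincRNAs, 55.5 for snRNAs and 55.2 for snoRNAs. The 12 immunoglobulin variable genes had a higher median of 78.8. Of these, 9 were Igkv genes of the kappa light chain locus on chromosome 6, led by Igkv4-59 at 152.31 and Igkv9-129 at 148.85, and neither of those was on the GFI1B:DAM list. Of 303 lincRNAs 249 had an interval of their own, whereas 48 of the 92 antisense genes did, so many antisense entries repeat the interval of the gene they overlap.

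The 82 miRNA genes had a median of 58 reads per kb. Of these 61 carry only a clone name, and 17 were matched to mature sequences of RefSeq (build GRCm38.p6), which holds 1228 miRNA genes. Mir216b was the strongest named gene, with 139 reads in 801 bp (mm9, chr11:28623213-28624013) at 173.53 reads per kb, and it was not on the GFI1B:DAM list. Mir30b had 157.46, also without an entry for GFI1B:DAM, and Mir3092 had 139.8 in an interval shared with Fndc3b. The clone-named genes AC115802.1, AL935159.1, AC133891.1, AC115706.1 and AC124080.1 had 205.06, 174.55, 173.5, 162.16 and 159.77, with AC121802.1 at 166.43 and AC101970.1 at 134.3. The mature sequences of Mir216b and Mir3092 are shown as the strongest with a sequence. Those of Mir193b (79.88), Mir99b (58.97), Mir290 (45.27), Mir30c-2 (43.11) and Mir7b (40.83), chosen after their values were seen, are shown because the names are widely studied. Sequences run 5′ to 3′ with the seed, bases 2 to 8, in capitals.
miR-216b-5p: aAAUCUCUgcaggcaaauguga
miR-216b-3p: aCACUUACcuguagagauucuu
miR-3092-5p: aGGGGAAAaugccuuucuccca
miR-3092-3p: gAAUGGGGcuguuuccccucc
miR-193b-3p: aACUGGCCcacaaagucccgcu
miR-99b-5p: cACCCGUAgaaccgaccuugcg
miR-290a-3p: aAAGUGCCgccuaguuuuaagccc
miR-290a-5p: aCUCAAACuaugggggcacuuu
miR-30c-5p: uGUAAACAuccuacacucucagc
miR-7b-5p: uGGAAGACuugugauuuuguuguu
The 17 matched genes give 29 mature sequences with 29 different seeds, so no seed was shared among these 17 genes. The other listed miRNA genes were not compared. The miR-290 cluster, known from mouse embryonic stem cells, is represented by miR-290a-3p with the seed AAGUGCC. An interval of a kb or more is far wider than a miRNA hairpin, and the mark cannot be placed on the hairpin itself.

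Along the genome the intervals were spread over all chromosomes at unequal density. Per Mb of the span from the first to the last interval, chromosome 19 had 3.97 intervals, chromosome 11 had 3.82 and chromosome 4 had 3.28, while chromosome 15 had 2.18 and chromosome 8 had 2.12. Only intervals assigned to a gene are on the list, and these densities were not set against the number of genes on each chromosome. Chromosome X held 396 intervals (2.46 per Mb) under 309 genes. Its genes had a median of 36.2 reads per kb, below the range of 42.6 to 54 of the 19 autosomes. Their median of 50 reads was likewise below the autosomal range of 55.5 to 93, whereas their summed interval length, 1.35 kb, lay inside the range of 1.23 to 1.7 kb. Chromosome X thus had fewer reads in intervals of ordinary length, a difference that was not tested. Chromosome Y had 1 interval.

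**Figure D4:**
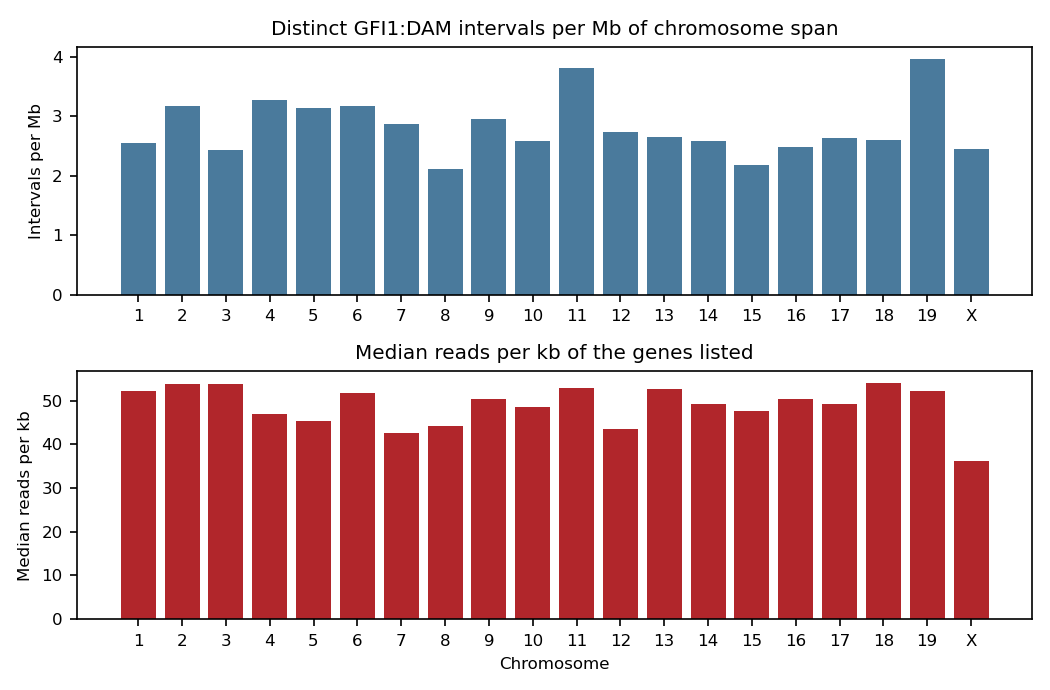
The upper bars give distinct GFI1:DAM intervals per Mb of the span between the first and last interval of each chromosome, and the lower bars the median reads per kb of its listed genes. Chromosomes 19 and 11 have the highest density, at 3.97 and 3.82 per Mb, and chromosome X has the lowest median, 36.2.

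Most intervals stood alone. The median gap between neighbours was 129 kb (interquartile range 37.9 to 392 kb). When intervals no more than 20 kb apart were joined into chains, 5156 were single, 694 pairs were found and 180 chains held 3 or more intervals. Those 180 chains contained 622 intervals, 8.68% of all. Of the 180, 119 lay under 1 gene, 51 under 2 genes and 10 under 3 or more. The intervals of a chain were thus usually listed under 1 gene rather than under a string of neighbouring genes.

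At this gap the longest chain lay in Rere on chromosome 4, with 9 intervals (mm9, chr4:149694834-149788284), 1 of them listed also under a U6 gene. The next lay in Amot on chromosome X, with 7 intervals (chrX:141913355-141960455) at 30.1 reads per kb. Amot encodes angiomotin, a protein of endothelial migration and of the Hippo pathway. The remaining 4 chains had 6 intervals each. One joined 5 intervals of Mpzl1, a surface glycoprotein that binds the phosphatase SHP2, to 1 of Rcsd1, an actin-capping partner, at 56.25 and 62.92 reads per kb. Another lay in Ccdc109a, now Mcu, the mitochondrial calcium uniporter, with 630 reads in 7 intervals altogether. Rbms1, an RNA-binding protein gene, held 6 of its 11 intervals in a chain. The last chain was divided between Hand2, a factor of heart and limb development, with 3 intervals at 43.08 reads per kb, and its neighbouring lincRNA 5033428I22Rik (Hdnr), with 3 at 27.61. Of these genes only Rcsd1 and the U6 gene were not on the GFI1B:DAM list, and presence there was common among all 5238 genes.

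In windows of 1 Mb, 1986 held at least 1 interval, with a median of 3, and 68 windows (3.42%) held 10 or more. Those 68 contained 791 intervals, 11% of all. The fullest window, at 149 Mb of chromosome 4, held 17 intervals, 13 of them listed under Rere, 3 under Eno1, the glycolytic enolase, and 1 under Spsb1. The second, at 73 Mb of chromosome 14, held 16. These lay in Rb1 and Rcbtb2 with 5 each, Fndc3a with 3, Sucla2, a Krebs cycle enzyme, with 2, and Itm2b with 1, the Lpar6 interval being one of Rb1 and that of the antisense gene Gm16549 one of Fndc3a. Reads per kb in this window ran from 48.04 in Sucla2 to 106.99 in Itm2b.

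A further 3 windows held 15 intervals. At 44 Mb of chromosome 2 they lay in Zeb2, a repressor known from the epithelial-mesenchymal transition, with 8 intervals at 49.92 reads per kb, in Gtdc1 with 6 at 82.06 and in Arhgap15 with 1. At 60 Mb of chromosome 2, 11 lay in Rbms1, 2 in Pla2r1, a phospholipase receptor, and 2 in March7, a ubiquitin ligase. The window at 115 Mb of chromosome 5 differed in kind, since its 15 intervals were spread over 12 genes, 11 of them with 1 interval each. Its strongest genes were Gm13828 at 65.47, the dynein light chain Dynll1 at 63.26, Gm13826 at 56.6, the protease Sppl3 at 49.7 with 4 intervals, Gatc at 47.62 and Cox6a1, a subunit of cytochrome oxidase, at 45.2. Of these 6 genes Sppl3 and Gatc were on the GFI1B:DAM list, as were Gm13824 and Rnf10 of the same window.

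**Figure D5:**
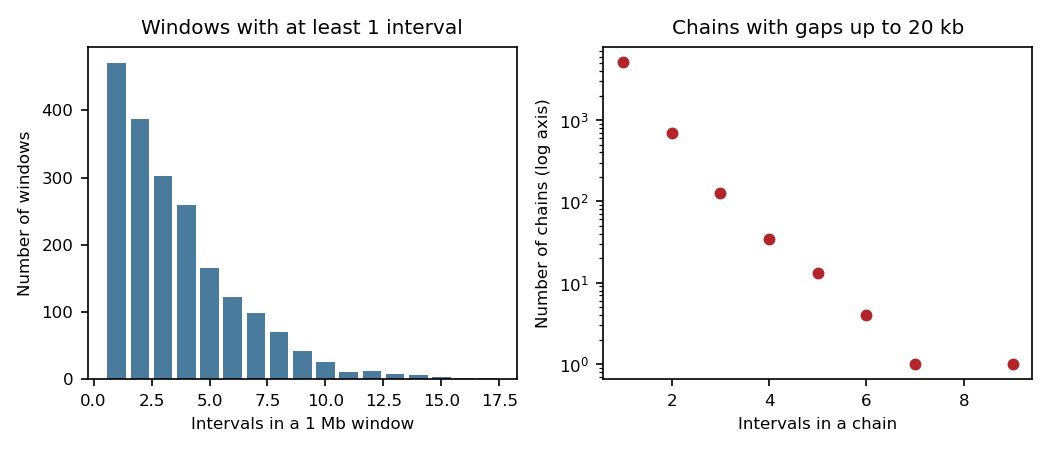
The left bars count 1 Mb windows by the number of GFI1:DAM intervals they hold, among windows with at least 1, and the right points count chains of intervals joined over gaps of up to 20 kb (log axis). Windows with 10 or more intervals number 68, and single intervals, 5156, far outnumber the 180 chains of 3 or more.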

How the data were processed

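DamID intervals of 3 samples of mouse haemogenic endothelium (GFI1:DAM, GFI1B:DAM and DAM alone) were turned by the authors into gene lists. For each gene the deposited number of reads was taken as a score, because the header of the GFI1:DAM list ends at the name BayesPeak and leaves unsaid whether control reads were subtracted. For GFI1B:DAM, per the file headers, lanes were merged and control reads subtracted before a second method, SS, at a threshold of 0.05. The deposited signal, reads per kb, is the read number over the summed length of the gene's intervals, and it carries no scaling to library size. Depth is unknown, and no confidence interval or floor was computed. Coordinates are on mm9, a build named in the submitters' processing notes. Neither the aligner nor the rule that assigned intervals to genes is named in the sources used here. Values of the DAM control were not used here. Each sample pools 2 biological replicates.

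Symbols were matched to RefSeq (GRCm38.p6) by current symbol and then by unique synonym. The planned match by Ensembl ID could not be made, since that column is empty. Of the genes 4633 (88.4%) matched, and 605 did not. RefSeq gave names, biotypes, gene lengths and sequences only. A gene was counted as called when it was listed. Families came from 58 symbol patterns and 20 member lists. The patterns for aminoacyl-tRNA synthetases and interferon regulatory factors were corrected, and the comparison with length classes was averaged over each family's members, after the data were seen. The members and lists were chosen with earlier results of these data known. Named were the 15 strongest genes by each measure, up to 4 strongest members of each family described, the genes of the longest chains and up to 6 of each of the fullest windows, the 10 strongest miRNA genes, the 5 genes with most intervals, and Gfi1, Gfi1b, Runx1, Kdm1a, Rcor1 and Hprt. Family members named beyond these 4, and single genes named where another is discussed, were chosen after their values were seen. Chains joined intervals with gaps up to 20 kb. Some genes and 2 families are not reported here, and they stay in the counts. The steps that join and count intervals were tested on simulated data. Python 3.11.15, pandas 2.3.3, numpy 2.4.6, scipy 1.17.1 and matplotlib 3.10.9 were used.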

Additional observations from a re-analysis of the deposited data

How the results depend on the processing

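The listed share of protein-coding genes, 18.4%, was 17.5% with genes that had an interval of their own, 16.9% with matching by current symbol only, 9.01% with genes at or above the median reads per kb, and 9.24% when all RefSeq genes were the base. Only 1 of the 15 strongest genes by reads per kb was among the 15 strongest by read number, and 13 were among the 15 strongest of genes with an own interval. The number of chains of 3 or more intervals, 180 at gaps up to 20 kb, was 67 at 10 kb and 460 at 50 kb. The longest chain also depended on the gap. Rere alone led at 20 kb, whereas Galnt1, a U1 gene, Rere and Amot tied at 5 intervals at 10 kb, and Rbms1 and Rere tied at 10 intervals at 50 kb. The protein-coding share of the list, 79.5%, was 81.2% among genes with an own interval. Moving the 1 Mb windows by 500 kb gave 80 windows with 10 or more intervals in place of 68. Of 78 families, 52 lay above the protein-coding background, 51 with own intervals and 46 at or above the median signal. The number of members listed per family stayed within 1.5 times in all 78 families with own intervals and in 15 of 78 at or above the median signal, a setting that by construction keeps only the stronger genes. The share of intervals on chromosome 11, 6.29%, was 6.65% among intervals of at least the median width. No paired analysis was possible because each group is 1 sample that pools its replicates, and for the same reason no replicate could be left out. Library depth is unknown, so a gene that is absent from the list was not shown to be unmarked.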

Other observations

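Long stretches held no interval assigned to a gene. There were 12 gaps of more than 5 Mb between neighbouring intervals. The longest lay on chromosome 14, 11.7 Mb (mm9, chr14:87967664-99698662), followed by 10.1 Mb on the same chromosome, 9.94 Mb on chromosome X and 9.5 Mb on chromosome 7. Only intervals assigned to a gene are on the list, so a stretch without entries may hold intervals that are not analysed here.

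The widest intervals fell at a mixed set of genes. Besides those at Rb1 and at Zfp608, an interval of 9001 bp lay at Galnt1, which starts the O-glycosylation of proteins, and others lay at Pinx1 (6551 bp), Cdc42 (6051 bp) and Tbx20 (5951 bp). In all 26 intervals were wider than 5 kb. An interval of 5601 bp on chromosome X was listed under 4 genes, among them Mid1, and 1651 bp on chromosome 11 under Gnb2l1, the ribosome-associated protein RACK1, and the small nucleolar RNAs Snord95 and Snord96a.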
